A study of Mus musculus with 6 samples.

Results

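The genes described here encode the machinery of mitosis in the mouse brain: the kinases that start it, the spindle, the kinetochores that hold chromosomes on the spindle, and the checkpoint that watches over their attachment. They were taken from a list of 58 mitosis gene names, which stand for 57 distinct genes because Cdc2a is the older symbol of Cdk1, and kinesins were left out. A probe was used when its symbol in the deposited table was a listed name. Of the 58 names, 49 had at least 1 probe, 74 probes in all, and 44 probes of 31 genes were detected (detection p under 0.05) on at least 3 of the 6 arrays and were tested. They were 31 of the 10548 genes tested on the whole table. The rule names no difference between the genotypes, but the list was drawn up with earlier results of these data known.

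Whole brains of male FVB mice (FVB/N in the methods) at postnatal day 6 were compared on Illumina bead arrays, 3 from hSRY-ON and 3 from hSRY-OFF mice. All mice carried 1 copy of the Signalox-hSRY transgene, in which the ubiquitous CAG promoter stands before a DsRed2 blocking cassette and a FLAG-tagged human SRY linked to EGFP. In hSRY-OFF mice the cassette was intact. In hSRY-ON mice it had been removed by Cre from the oocytes of Ddx4-Cre mothers, from the single-cell embryo onward, and those profiled had not inherited the Ddx4-Cre transgene. The model is thus a single targeted line in which SRY is not restricted to the brain, the mothers of the hSRY-ON mice carried Cre, and the human transgene itself was not measured by the mouse probes used here.

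Entry into mitosis is driven by CDK1 bound to B-type cyclins, with PLK1 and the aurora kinases acting beside it. The spindle checkpoint, with BUBR1, BUB3 and MAD2 among its parts, holds back CDC20 and the anaphase-promoting complex until every kinetochore is attached, after which separase frees the sister chromatids and the cell divides. The mRNAs of most of these genes accumulate in the G2 phase and mitosis and are low in cells that have left the cycle, and in the first postnatal week the brain still holds dividing granule cell precursors, precursors of glia and cells of the subventricular zone.

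Many mitotic genes were lower in hSRY-ON brains. With 1 probe per gene, that of the highest mean signal, 11 of the 31 genes fell (35.5%) and 0 rose at an adjusted p under 0.05 in limma, where 1.48% of all genes tested were called lower, 0.91% higher and 2.39% in either direction. Counted by probe, 14 of 44 were called lower (31.8%) and 0 higher, against 1.32% and 0.844% of the 14215 probes tested (2.17% in either direction). A called probe was present for 12 genes, which were Ccnb1, Cdc25c, Cdc2a, Plk1, Bub1b, Birc5, Incenp, Nusap1, Cdc20, Ncapd2, Top2a and Prc1. In this whole tissue, fewer dividing cells and less of these mRNAs in each cell cannot be told apart. The adjusted p-values of the called probes lay between 0.0263 and 0.0484, close to the threshold. The count was 0 of the member probes when hSRY-OFF 1, hSRY-OFF 2, hSRY-OFF 3, hSRY-ON 1 or hSRY-ON 2 was left out and 20 without hSRY-ON 3, while over all probes 308 calls became 0 or 1 and, without hSRY-ON 3, 417. All 14 called probes kept an unadjusted p under 0.05 in each of these 6 limma fits. They had been picked by their p on these same arrays, so this is not a separate check.

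The median log2 fold change (hSRY-ON minus hSRY-OFF) of the 31 genes was -0.63, with quartiles of -0.81 and -0.44 and a range from -1.08 to 0.34, and the median gene stood at 64.5% of its hSRY-OFF level. Over all genes the median was 0.00041. Of the 31 values, 28 were below 0, and Cenpt, Spc24 and Spag5 were above. In 24 genes all 3 hSRY-ON arrays lay below all 3 hSRY-OFF arrays, an order seen in 15.3% of all genes, and in 2 genes, Cenpt and Spag5, they lay wholly above, as in 13.7% of all genes. At an unadjusted p under 0.05, 26 genes were lower (11.6% of all genes) and 1 was higher (9.86%). The 16 genes of brighter probes had a median of -0.69 with 8 called, and the 15 of dimmer probes a median of -0.58 with 3 called. The size of the median depended on the background correction, being -0.37 with none.

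**Figure D1:**
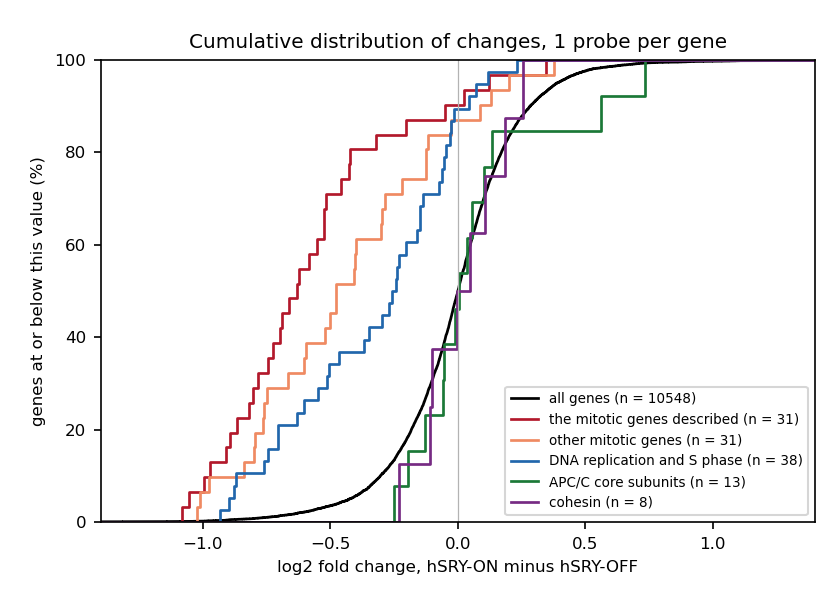
Cumulative percentage of genes (y axis) at or below each log2 fold change, hSRY-ON minus hSRY-OFF (x axis), for all 10548 genes tested, the 31 mitotic genes and 4 related lists, with 1 probe per gene. Among the curves drawn, which leave out the mitotic kinesins, that of the mitotic genes lies furthest to the left over most of its length (median -0.63). The curves of the anaphase-promoting complex core (12 subunits and the co-activator Fzr1) and of cohesin lie around that of all genes.

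The 3 hSRY-ON brains were not lowered to the same degree. The median deviation of the 31 genes from their hSRY-OFF mean was 0.04, 0.08 and -0.09 on hSRY-OFF 1, 2 and 3, and -0.86, -0.60 and -0.45 on hSRY-ON 1, 2 and 3. Each hSRY-ON brain was below each hSRY-OFF brain in this median, and hSRY-ON 1 was the lowest. Among the 24 wholly lower genes, hSRY-ON 3 was the highest of the hSRY-ON arrays in 18 (75%), compared with 45.2% of the 1614 genes of the table with that order, and hSRY-ON 1 was the lowest in 18. The SD between replicates was the larger in hSRY-ON for 22 of the 31 genes, with medians of 0.23 in hSRY-ON and 0.13 in hSRY-OFF, while over all genes it was the larger in hSRY-ON in 60.1%, with medians of 0.13 and 0.10.

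**Figure D2:**
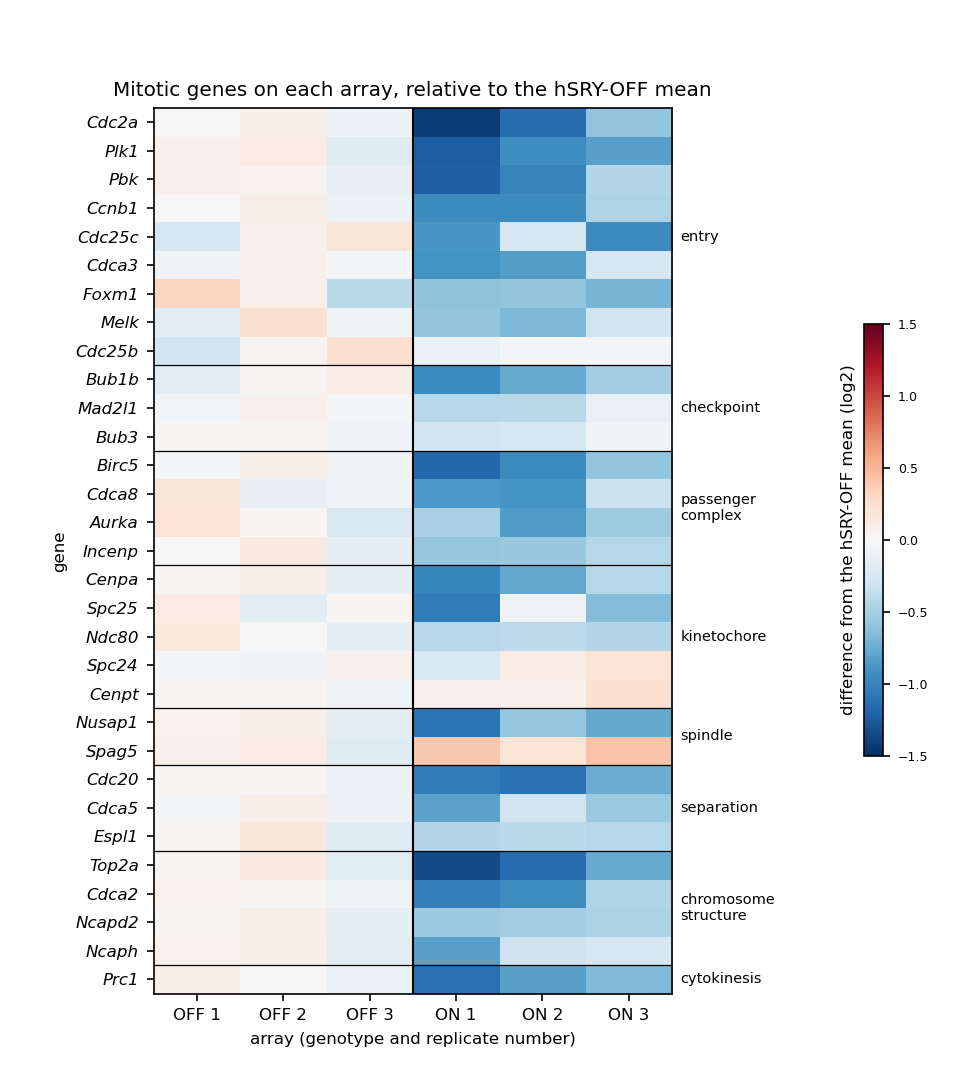
Difference of each array (columns) from the hSRY-OFF mean in normalized log2 units, for the 31 tested mitotic genes (rows) in groups by role. The hSRY-ON columns are blue (lower) in most rows, deepest on hSRY-ON 1 and palest on hSRY-ON 3, and Spag5 and Cenpt are red (higher) on all 3 hSRY-ON arrays.

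The arrays themselves were alike in depth, with 13816 to 14377 probes detected and median deposited signals of 200.25 to 219.76. Correlations over the tested probes were 0.9936 to 0.994 within hSRY-OFF, 0.9908 to 0.993 within hSRY-ON and 0.9862 to 0.9897 between the genotypes. Of the 44 member probes, 40 were detected on all 6 arrays. The filter could favour one direction for few of them, since 2 probes (Melk and Spc25) were detected on 3 hSRY-OFF and fewer hSRY-ON arrays, and 1 had the opposite pattern. A further 18 genes had probes that did not pass. Ccna2, Ccnb2, Bub1, Ttk, Cenpe, Cenph, Dlgap5, Hmmr, Nek2, Tacc3, Tpx2, Fbxo5, Ube2c, Pttg1, Smc2 and Ect2 were detected on 0 arrays, and Cenpk and Plk4 on 1. With no filter these 18 had a median log2 fold change of -0.08, with 0 called by limma and 0 at an unadjusted p under 0.05. Their signals were at background, so that a difference in them was not detectable with these probes. Aurkb, Cenpf, Nuf2, Ckap2, Ncapg, Smc4, Mki67 and Racgap1 had no probe under these symbols and were not analysed here.

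Promoters of genes that moved together are shown for comparison of their sequence. Mitotic promoters are known for a pair of elements: the CCAAT box, bound by NF-Y, and the cell cycle genes homology region, bound by the MuvB complexes that hold such genes silent outside G2 and mitosis and, with B-MYB and FOXM1, switch them on. The sequences below are the 200 bases before the transcript start in RefSeq (GRCm38.p6), 5′ to 3′ on the gene's own strand, of the most lowered gene (Top2a), of 3 lowered genes of entry, sister separation and cytokinesis, and of Cenpt, which was not lowered. Capitals mark a CCAAT box (CCAAT, or ATTGG on the opposite strand), a homology region (TTTGAA or TTCGAA, or TTCAAA for the opposite strand) or an E2F site (TTTGGCG or TTTCGCG, either strand).
Top2a, chr11:99024190-99024389, minus strand: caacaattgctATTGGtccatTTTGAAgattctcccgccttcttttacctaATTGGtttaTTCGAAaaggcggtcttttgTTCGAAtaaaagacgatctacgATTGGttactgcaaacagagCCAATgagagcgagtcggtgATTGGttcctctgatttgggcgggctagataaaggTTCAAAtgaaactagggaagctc
Cdk1, chr10:69352913-69353112, minus strand: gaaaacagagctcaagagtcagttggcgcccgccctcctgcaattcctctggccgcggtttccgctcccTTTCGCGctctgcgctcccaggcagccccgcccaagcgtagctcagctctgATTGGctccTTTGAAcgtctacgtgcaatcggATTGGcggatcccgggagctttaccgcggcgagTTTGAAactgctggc
Cdc20, chr4:118437344-118437543, minus strand: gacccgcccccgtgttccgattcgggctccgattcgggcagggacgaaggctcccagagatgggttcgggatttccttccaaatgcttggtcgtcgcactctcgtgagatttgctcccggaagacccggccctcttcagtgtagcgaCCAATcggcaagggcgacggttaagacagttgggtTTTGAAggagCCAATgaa
Prc1, chr7:80294276-80294475, plus strand: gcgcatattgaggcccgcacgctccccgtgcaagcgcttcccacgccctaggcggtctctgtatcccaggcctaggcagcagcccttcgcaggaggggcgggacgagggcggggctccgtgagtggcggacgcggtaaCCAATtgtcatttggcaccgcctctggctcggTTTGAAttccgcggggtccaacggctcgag
Cenpt, chr8:105852009-105852208, minus strand: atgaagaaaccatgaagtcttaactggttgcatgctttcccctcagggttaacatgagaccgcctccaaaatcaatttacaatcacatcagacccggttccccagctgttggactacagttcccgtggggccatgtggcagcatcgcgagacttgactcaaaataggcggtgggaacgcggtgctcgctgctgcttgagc
These windows held 5 CCAAT boxes and 4 homology regions in Top2a, 2 of each and 1 E2F site in Cdk1, 2 boxes and 1 region in Cdc20, 1 of each in Prc1 and none in Cenpt. RefSeq gives Prc1 another start, whose 200 bases (chr7:80294251-80294450) hold the same CCAAT box but cut the homology region at their edge.

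Promoter windows from 250 bases before to 50 after the start were held for 46 of the 57 genes (51 windows), among them 25 tested genes. A CCAAT box and a homology region occurred together in 62.7% of the windows of listed genes and in 7.52% of all 32851 windows. Singly, the CCAAT box was in 76.5% and 37.4%, the homology region in 66.7% and 19.2%, and the E2F site in 7.84% and 2.37%. Adjacent motifs may share a base, and each was counted on its own. Among windows of called genes (11 windows of 10 genes) 72.7% held both elements, and among those of all tested members (27 windows) 66.7% did. Matches and calls did not coincide in every gene. Birc5 and Nusap1, both called lower, had no match in their windows, and Spag5, which was not lowered, had both elements.

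**Figure D3:**
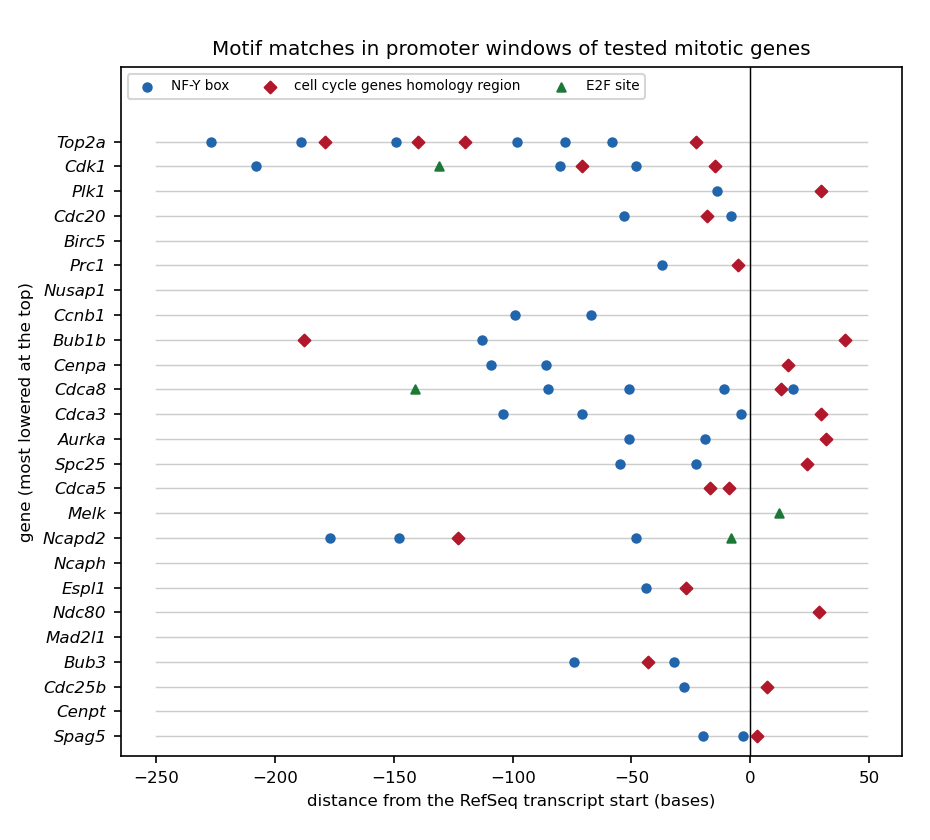
Positions of motif matches on either strand (x axis, bases from the RefSeq transcript start) in 1 window for each of the 25 tested genes that had one (y axis, most lowered at the top). Points mark the first base of a CCAAT box (NF-Y box), a homology region or an E2F site. Most rows hold a CCAAT box and a homology region, and Birc5, Nusap1, Ncaph, Mad2l1 and Cenpt hold no match.

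Of the genes of entry into mitosis, 9 were tested, 3 were called lower and 7 lay wholly lower, with a median of -0.70. For this and the following role groups, the shares over all genes were 1.48% called lower, 15.3% wholly lower and 13.7% wholly higher. Cdc2a, which encodes the mitotic kinase CDK1, measured 9.56, 9.65 and 9.47 on the normalized log2 scale in hSRY-OFF 1, 2 and 3 and 8.15, 8.42 and 8.96 in hSRY-ON 1, 2 and 3. The groups were apart, with hSRY-ON 3 nearest to hSRY-OFF. The log2 fold change was -1.05 ± 0.20 (SE, n = 3 per group, adjusted p = 0.0484, limma), which leaves 48.2% of the hSRY-OFF level. Plk1, the polo-like kinase of spindle assembly and mitotic entry, was at 8.94, 9.0 and 8.67 in hSRY-OFF and at 7.63, 7.93 and 8.05 in hSRY-ON. Its fall of -1.0 ± 0.14 (SE, adjusted p = 0.0294) was evident on each hSRY-ON array. Ccnb1 encodes cyclin B1, the partner of CDK1, and its brighter probe gave 8.23, 8.33 and 8.13 in hSRY-OFF against 7.28, 7.29 and 7.77 in hSRY-ON. This probe was called (-0.78 ± 0.15, SE, adjusted p = 0.0479), and the dimmer one, at -1.04, was not (adjusted p = 0.0565).

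The CDC25 phosphatases, which activate CDK1, did not move together. For Cdc25c, the brighter of 2 probes overlapped between the groups, with 6.82, 7.15 and 7.25 in hSRY-OFF and 6.2, 6.82 and 6.11 in hSRY-ON (-0.70, adjusted p = 0.124). The other probe did not overlap, with 7.18, 6.92 and 7.14 against 6.11, 6.39 and 6.41, and was called (-0.78 ± 0.12, SE, adjusted p = 0.0327). Cdc25b measured 6.95, 7.27 and 7.49 in hSRY-OFF and 7.13, 7.21 and 7.22 in hSRY-ON. All 3 hSRY-ON values lay inside the hSRY-OFF range, the difference was -0.05 ± 0.14 (SE, adjusted p = 0.879), and it was 0.08 without hSRY-OFF 3. Pbk, a mitotic protein kinase, was wholly lower at 10.27, 10.26 and 10.08 against 8.98, 9.20 and 9.76, and its -0.89 missed the threshold (adjusted p = 0.0662), with hSRY-ON 3 close to hSRY-OFF. Cdca3, the transcription factor gene Foxm1 and the kinase gene Melk had values of -0.66, -0.63 and -0.53, wholly lower but not called, at adjusted p = 0.0928, 0.109 and 0.103.

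In the spindle checkpoint, 1 of 3 tested genes was called. Bub1b, encoding the checkpoint protein BUBR1, was at 7.55, 7.75 and 7.82 in hSRY-OFF and at 6.76, 6.95 and 7.18 in hSRY-ON, a fall of -0.74 ± 0.13 (SE, adjusted p = 0.0413). The others were closer to hSRY-OFF. Mad2l1, encoding MAD2, gave 9.03, 9.15 and 9.04 against 8.64, 8.66 and 8.96, which did not overlap but was not called (-0.32 ± 0.11, SE, adjusted p = 0.157). Bub3 gave 10.13, 10.16 and 10.05 against 9.82, 9.85 and 10.06. Here hSRY-ON 3 reached the hSRY-OFF range, and the difference was -0.20 ± 0.09 (SE, adjusted p = 0.267).

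The chromosomal passenger complex, which carries aurora B kinase to centromeres and later to the midzone, was wholly lower in all 4 genes tested with it, Aurka included (15.3% of all genes), with 2 called (1.48% of all genes) and a median of -0.65. Birc5 encodes survivin, and its brightest probe read 9.42, 9.54 and 9.40 in hSRY-OFF and 8.28, 8.49 and 8.86 in hSRY-ON (-0.91 ± 0.15, SE, adjusted p = 0.0360). The other 2 Birc5 probes gave -0.99 and -0.92 with adjusted p of 0.0584 and 0.0717, so that all 3 were of like size and 1 was called. Incenp, the scaffold of the complex, had 8.68, 8.81 and 8.53 against 8.09, 8.11 and 8.25, with little spread in hSRY-ON and a fall of -0.53 ± 0.10 (SE, adjusted p = 0.0484). Cdca8, encoding borealin, had 8.18, 7.88 and 7.94 against 7.14, 7.12 and 7.67 and was not called (-0.69, adjusted p = 0.0832). Aurka, whose kinase acts at centrosomes, was at -0.62 (adjusted p = 0.0774).

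No centromere or kinetochore gene was called among the 5 tested by limma, 2 of which lay wholly lower (15.3% of all genes) and 1 wholly higher (13.7% of all genes), with a median of -0.42. Cenpa encodes the histone H3 variant that marks centromeres. It was at 11.14, 11.20 and 10.96 in hSRY-OFF and at 10.12, 10.33 and 10.68 in hSRY-ON, wholly lower by -0.72 ± 0.15 (SE, adjusted p = 0.0584). The NDC80 complex, which binds spindle microtubules, gave mixed readings. Ndc80 was at -0.42 with no overlap (adjusted p = 0.0672). Spc25 gave 6.39, 6.10 and 6.30 against 5.21, 6.21 and 5.62 at its brighter probe, with hSRY-ON 2 inside the hSRY-OFF range (-0.58, adjusted p = 0.222). The 2 probes of Spc24 disagreed. The brighter was level, with 6.97, 6.93 and 7.05 against 6.74, 7.09 and 7.19 (0.02, adjusted p = 0.936), whereas the dimmer was wholly lower, with 6.38, 7.18 and 7.02 against 6.17, 5.55 and 5.74 (-1.04, adjusted p = 0.0731). Cenpt, part of the inner kinetochore, was at 10.82, 10.81 and 10.74 against 10.86, 10.85 and 11.03, slightly and wholly higher at 0.12 ± 0.08 (SE, adjusted p = 0.443).

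The pair of spindle genes that could be tested went opposite ways. Nusap1, encoding a microtubule-bundling protein of the spindle, was at 7.44, 7.47 and 7.24 in hSRY-OFF and 6.28, 6.80 and 6.61 in hSRY-ON and fell by 0.82 on the log2 scale (SE 0.14, adjusted p = 0.0413). Spag5, encoding astrin, was at 7.62, 7.67 and 7.36 in hSRY-OFF and 7.95, 7.76 and 7.97 in hSRY-ON. It was the one member wholly higher with an unadjusted p under 0.05, and it was not called (0.34 ± 0.11, SE, adjusted p = 0.152).

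For anaphase, Cdc20 had the most probes and the lowest adjusted p. CDC20 activates the anaphase-promoting complex and is the target of the checkpoint. Its brightest probe read 9.87, 9.86 and 9.74 in hSRY-OFF and 8.77, 8.71 and 9.07 in hSRY-ON, a fall to 51% with a narrow spread in each group (-0.97 ± 0.11, SE, adjusted p = 0.0263). Of its other probes, 2 were called as well (-0.90, adjusted p = 0.0263, and -0.91, adjusted p = 0.0313), and the dimmest was wholly lower but not called (-0.62, adjusted p = 0.169). Cdca5, encoding sororin, which protects cohesion between sisters, was wholly lower at 6.86, 6.98 and 6.80 against 6.08, 6.58 and 6.33 (-0.55, adjusted p = 0.0842). Espl1, encoding separase, was wholly lower at 6.77, 6.93 and 6.57 against 6.31, 6.35 and 6.32 (-0.43, adjusted p = 0.0861). Both of these missed the threshold.

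Chromosome structure held the largest change of all 31 genes. Top2a, encoding the topoisomerase that untangles sister chromatids, was at 9.63, 9.73 and 9.41 in hSRY-OFF and at 8.24, 8.44 and 8.83 in hSRY-ON. The groups were well apart, and the fall of -1.08 ± 0.16 (SE, adjusted p = 0.0327) left 47.2% of the hSRY-OFF level. Cdca2, encoding a phosphatase-targeting protein of mitotic chromatin, lay just outside the threshold, at 8.04, 8.0 and 7.91 against 6.96, 7.05 and 7.53 (-0.80, adjusted p = 0.0506). NCAPD2 and NCAPH are subunits of condensin, which compacts mitotic chromosomes. Ncapd2 gave 8.75, 8.80 and 8.56 against 8.15, 8.18 and 8.23 at its brightest probe and was called (-0.52 ± 0.09, SE, adjusted p = 0.0413). Its 2 dimmer probes overlapped between the groups, at -0.50 (adjusted p = 0.159) and 0.09 (adjusted p = 0.80). Ncaph gave 8.77, 8.83 and 8.57 against 7.91, 8.42 and 8.48, wholly lower but not called (-0.46, adjusted p = 0.171).

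Of the cytokinesis genes, Prc1 alone could be tested. PRC1 bundles the microtubules of the central spindle. Its gene was at 10.65, 10.55 and 10.44 in hSRY-OFF and at 9.43, 9.73 and 9.88 in hSRY-ON, with no overlap. The fall was -0.87 ± 0.13 (SE, adjusted p = 0.0328), to 54.8% of hSRY-OFF.

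**Figure D4:**
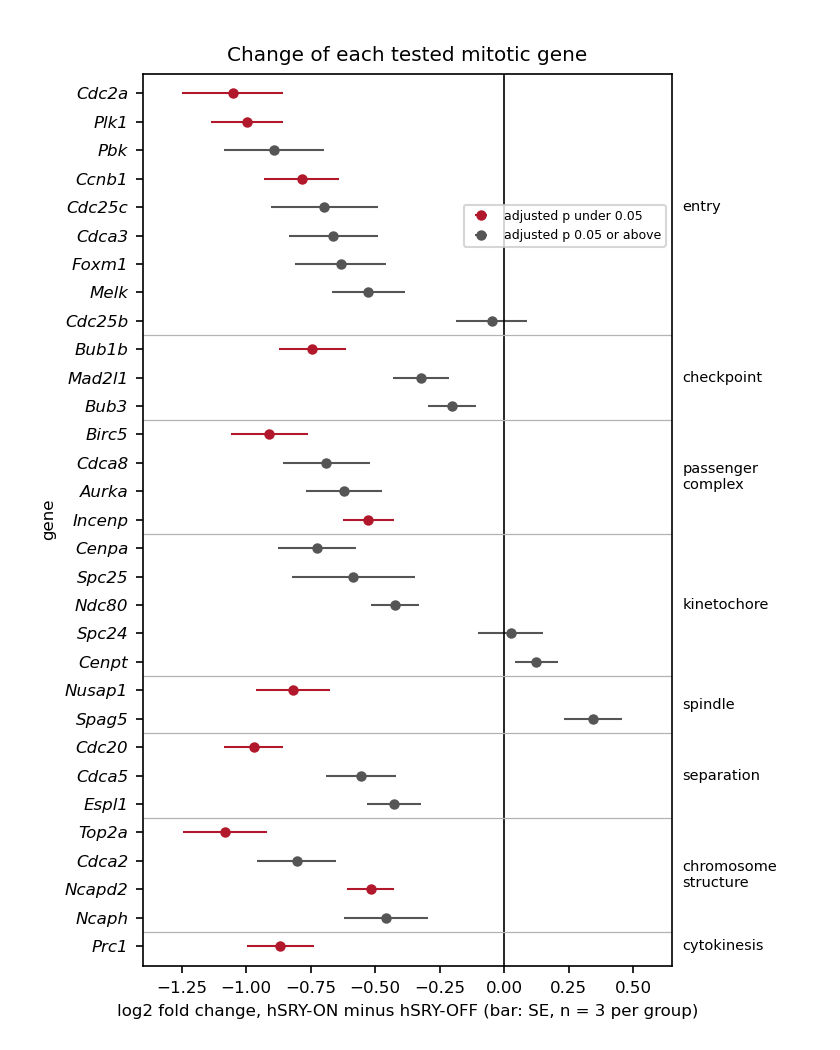
Log2 fold change, hSRY-ON minus hSRY-OFF (x axis), of each tested mitotic gene (y axis, in groups by role), with its SE from limma as a bar and n = 3 per group. The 11 red points had an adjusted p under 0.05 and lie between -1.08 and -0.52, and Spc24, Cenpt and Spag5 lie to the right of 0.

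**Figure D5:**
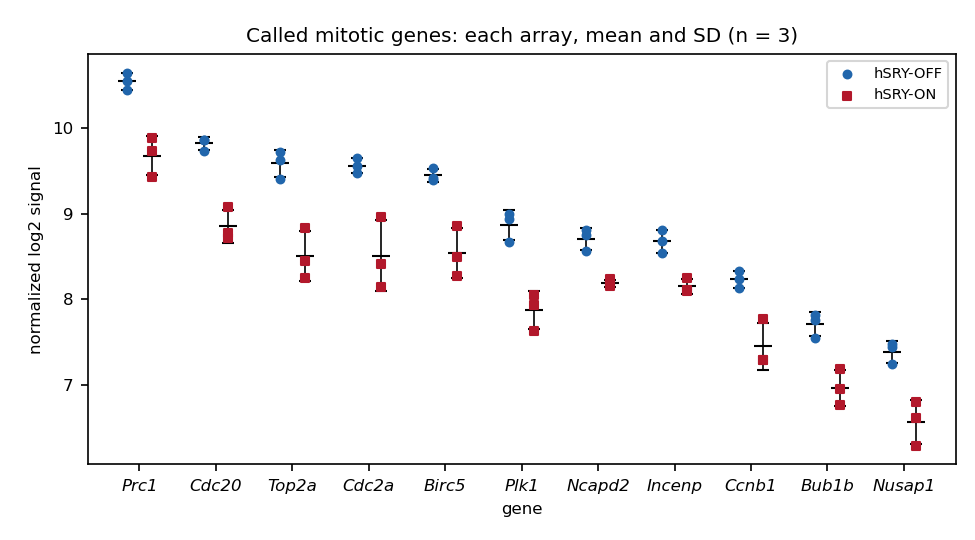
Normalized log2 signal (y axis) of the 11 called genes (x axis) on each array, with the mean and SD of 3 arrays per genotype as a line and bars. No hSRY-ON square reaches an hSRY-OFF circle of the same gene.

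Other mitotic genes, from a list that shares none with the 31, showed calls in the same direction. Of 31 tested, 8 were called lower and 0 higher, where 1.48% and 0.91% of all genes were, and 15 lay wholly lower, where 15.3% of all genes did, with a median of -0.48. The called genes with the largest changes were D2Ertd750e (now Knstrn, a kinetochore and spindle protein) at -1.02 (adjusted p = 0.0394), Sgol1 (now Sgo1, the shugoshin that guards centromeric cohesion) at -1.01 (adjusted p = 0.0242) and Gtse1 at -0.98 (adjusted p = 0.0263). Ube2s, the ubiquitin-conjugating partner of the anaphase-promoting complex, stood on the other side of 0 at 0.38 and was not called (adjusted p = 0.196). All 7 mitotic kinesins tested were wholly lower and 4 were called, beside the same shares of all genes (15.3% and 1.48%), with a median of -0.75. The largest change was that of 3000004C01Rik (now Kif18b), from 8.28, 8.30 and 8.30 in hSRY-OFF to 7.22, 6.89 and 7.35 in hSRY-ON (-1.14, adjusted p = 0.0243), followed by Kif23 (-0.95, adjusted p = 0.0313) and Kif2c (-0.78, adjusted p = 0.0263).

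The core of the anaphase-promoting complex, which is made through the whole cycle and in neurons, had levels on both sides of 0. Of 13 genes tested, which were 12 core subunits and the co-activator gene Fzr1, 0 were called lower by limma and 0 were lower at an unadjusted p under 0.05, where 1.48% and 11.6% of all genes were, and the median was 0.0036. Called higher were 2 of the 13, where 0.91% of all genes were. Cdc23 rose from 9.60, 9.60 and 9.67 in hSRY-OFF to 10.18, 10.11 and 10.27 in hSRY-ON (0.56 ± 0.08, SE, adjusted p = 0.0313), and Anapc11 from 6.60, 6.90 and 6.83 to 7.70, 7.43 and 7.40 (0.73 ± 0.12, SE, adjusted p = 0.0376). Among 8 cohesin genes, whose ring is also used outside mitosis, 0 were called by limma and 0 had an unadjusted p under 0.05, and the median was 0.02. With 2.39% of all genes called in either direction, a count of 0 among 8 is near the background. These lists are of different size, and their difference from the mitotic genes was not tested.

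Of the regulators of mitotic transcription, 11 were below 0 and none was called. Of 14 tested genes of the E2F, MuvB and NF-Y families and their partners, 0 were called by limma, 5 were lower and 0 higher at an unadjusted p under 0.05, and the median was -0.15. Over all genes 1.48% were called lower and 11.6% were lower at an unadjusted p under 0.05. A count of 0 called among 14 is therefore near the background. Of the 14 genes, 7 lay wholly lower, against 15.3% of all genes. Rbl1, encoding the pocket protein p107, was at -0.70 (adjusted p = 0.156) and E2f3 at -0.60 (adjusted p = 0.108). Mybl2, encoding B-MYB, was at 7.73, 7.68 and 7.79 against 7.45, 7.54 and 7.60, wholly lower and not called (-0.20, adjusted p = 0.215). The NF-Y subunit genes Nfya, Nfyb and Nfyc were at 0.22, -0.10 and -0.05, with adjusted p of 0.414, 0.493 and 0.765.

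Most genes of the earlier phases of the cycle were lower too, with medians nearer to 0. Their difference from the mitotic genes was not tested. Of 38 genes of DNA replication and the S phase, 34 were below 0, 21 lay wholly lower, 3 were called lower and 0 higher, and the median was -0.25. Over all genes, 15.3% lay wholly lower and 1.48% were called lower. At an unadjusted p under 0.05 in limma, 19 of the 38 were lower, against 11.6% of all genes. The called genes were Pold1, of DNA polymerase delta (-0.70, adjusted p = 0.0294), Tyms, thymidylate synthase (-0.63, adjusted p = 0.0330), and Mcm4, of the replicative helicase (-0.47, adjusted p = 0.0386). Larger falls, wholly lower but not called, included Mcm3 (-0.93, adjusted p = 0.0513), Uhrf1 (-0.90, adjusted p = 0.0844), Tk1 (-0.88, adjusted p = 0.129) and Mcm10 (-0.87, adjusted p = 0.0557). Among 11 genes of G1 cyclins, their kinases and inhibitors the median was -0.30, and 1 was called, Cdkn2c, a CDK inhibitor (-0.75, adjusted p = 0.0443). Of the 11, 6 lay wholly lower, 1 wholly higher (13.7% of all genes), and 6 were lower at an unadjusted p under 0.05 in limma. Ccne2, at -0.78, was wholly lower and not called (adjusted p = 0.0570). No gene of either list was called higher. In every related list, as in the 31 genes, 0 genes were called by limma when hSRY-OFF 1, 2 or 3 or hSRY-ON 1 or 2 was left out. Without hSRY-ON 3 the calls numbered 9 in the other mitotic genes, 4 in the kinesins, 2 in the anaphase-promoting complex, 12 in replication and 4 in the G1 list.

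Markers of cell types were read on the same arrays, where 1.48% of all genes were called lower and 11.6% were lower at an unadjusted p under 0.05. The neuronal markers Stmn2, Syn1, Syt1 and Mtap2 were detected in every brain, while the probes of Snap25 and Nefl were detected on 0 arrays. Summed over each list on the linear scale, the 31 mitotic genes had 15500 to 17310 signal units in hSRY-OFF and 9980 to 12980 in hSRY-ON. The 5 granule cell precursor markers tested overlapped between the groups, at 2791 to 3376 against 3238 to 3416, with 0 called by limma, 0 at an unadjusted p under 0.05 and a median log2 fold change of 0.03. Their defining genes Atoh1, Gli1 and Mycn were detected on 0 arrays, and Ptch1 on 2 hSRY-OFF and 1 hSRY-ON arrays. The number of dividing precursors therefore cannot be read from this list. The 6 markers of neural stem cells overlapped in sum, at 24130 to 24510 against 23040 to 26650, and had a median of -0.22 with 0 called and 2 lower at an unadjusted p under 0.05. Those were Hes5, a target of Notch, wholly lower at -0.36 (adjusted p = 0.168), and Fabp7, of radial glia, at -0.49 with overlap (adjusted p = 0.168). A sum gives most weight to its brightest probes, so single genes can differ from it.

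Some marker lists of other cells had sums that did not overlap between the genotypes. Over all genes, 15.3% lay wholly lower and 13.7% wholly higher, 11.6% were lower and 9.86% higher at an unadjusted p under 0.05, and 1.48% were called lower. The 6 oligodendrocyte precursor markers summed to 12440 to 13090 in hSRY-OFF and 10240 to 10590 in hSRY-ON, with 4 of 6 wholly lower. Only Gpr17, a receptor of committed precursors, was called, from 11.64, 11.73 and 11.73 to 10.96, 11.13 and 10.83 (-0.73, adjusted p = 0.0263). The precursor marker Pdgfra lay wholly higher at 0.19 (adjusted p = 0.254), and Cspg4 overlapped between the groups at -0.07 (adjusted p = 0.683). The 7 endothelial markers summed to 7202 to 7632 against 5675 to 6400, with 4 wholly lower, 1 (Flt1) wholly higher and 0 called. The 5 meningeal markers summed to 20160 to 21300 against 17700 to 19930, with 4 wholly lower, 3 lower at an unadjusted p under 0.05 and 0 called. Among them, Lum was at 8.17, 8.39 and 8.38 against 6.73, 7.19 and 7.76 (-1.09, adjusted p = 0.0682) and Col1a1 at 9.20, 9.17 and 9.34 against 8.19, 8.48 and 8.96 (-0.69, adjusted p = 0.102), while Igf2 was at -0.10 with overlap. Those of neuroblasts (9393 to 9985 against 10480 to 10980, 5 genes) and of microglia (3212 to 3500 against 3946 to 4234, 8 genes) summed higher in hSRY-ON, with 0 called in either. Of the neuroblast genes 4 of 5 lay wholly higher and 3 were higher at an unadjusted p under 0.05, and of the microglial genes 2 of 8 lay wholly higher and 2 were higher at that p. Sums of neuronal and erythroid markers overlapped between the groups, and the neuronal gene Gap43 was called higher (0.45, adjusted p = 0.0479). These marker calls, too, were lost without any 1 of the same 5 arrays, and without hSRY-ON 3 the calls were 1 gene of oligodendrocyte precursors, 0 of neurons, 2 of endothelium, 2 of meninges and 1 of microglia. The part of these cells in the values of the mitotic genes was not tested.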

How the data were processed

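Total RNA of whole brain was extracted with a Trizol kit, and biotinylated cRNA was hybridized to Illumina mouse bead arrays. The authors deposited linear signal intensities with a detection p-value for each probe, to which no normalization had been applied. Their methods name TCC without settings, and the labels name limma. TCC was not used here. Groups and replicate numbers were taken from the labels, which do not say how same-numbered mice were related. The paper describes recombination by oocyte Cre whether or not a pup inherits Ddx4-Cre. By that account, hSRY-OFF mice with an intact cassette came from other mothers and litters than hSRY-ON mice. Effects of litter or mother then cannot be told apart from those of the genotype.

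The analysis used limma 3.58.1 (R 4.3.3). Background was estimated from the deposited detection p-values (normexp, offset 16), and intensities were quantile normalized and put on the log2 scale. Probes with a detection p under 0.05 on at least 3 of 6 arrays were tested (14215 of 25697) with lmFit and eBayes, two-sided, with the genotype as the only term, and p-values were adjusted by Benjamini-Hochberg over all of them. The threshold was 0.05. Every adjusted p in the text is from this limma fit. The probe with the highest mean signal stood for a gene. P-values measure the spread between samples, and with 3 arrays per group, that number limits the precision. The steps were tested on simulated data, with 200 probes changed by 1 log2 unit. Of the 191 changed probes that were tested, 64.9% were called in the right direction. Of 133 calls, 6.77% were false. Promoters came from RefSeq tables and were searched in Python 3.11.15. Figures were drawn with matplotlib 3.10.9.

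The mitotic genes, the related lists and the marker lists were chosen with earlier results of these data known. Values on all arrays were given for the 2 largest changes and the smallest in each role group and for members with a called probe, and disagreeing probes were named. At most 3 called genes of each related list were named. Pbk, Mybl2, Ube2s and some genes that were not called were named after their values were seen. Alternatives tried were other background corrections, normalizations, filters, priors, weights and thresholds, a replicate block, the mean over probes of a gene, and leaving out each array.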

Additional observations from a re-analysis of the deposited data

How the results depend on the processing

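The median of the mitotic genes stayed below 0 under each alternative, while the number called varied and Spc24 and Cdc25b changed sign under some. Of 44 member probes, 14 were called (308 of all probes). The counts were 29 (1317 of all probes) with no background correction, 26 (860) with normexp fitted on the signals at an offset of 50, 7 of 74 (123) with no filter, 25 of 35 (705) with detection p under 0.01 on all 6 arrays, 29 (1447) with a trended robust prior, 23 (480) with array weights and 29 (999) at an adjusted p under 0.10. Median scaling gave 16 (332) and cyclic loess 14 (338), and 0 member probes were called higher under any setting. Leaving out single arrays gave 0 to 20 member probes (0 to 417 of all probes). The cause was not tested, other than that the strict filter tested fewer probes, no filter tested more, and each left-out array left fewer samples.

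The 3 replication genes called became 15 with no background correction or with the trended robust prior, 12 with normexp at an offset of 50 and 6 with median scaling. The 1 gene of the G1 list became 5, 5, 5 and 1 under these 4 settings in the order no correction, trended prior, normexp and median scaling, and the 0 endothelial genes became 4, 4, 1 and 0.

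The median log2 fold change of -0.63 became -0.37 with no background correction, -0.46 with normexp at an offset of 50 and -0.42 with no filter, which adds 18 genes at background. Single dim genes moved too. With no background correction Nusap1, Foxm1, Cdc25c and Melk were at -0.37, -0.33, -0.28 and -0.15, against -0.82, -0.63, -0.70 and -0.53 in the report. The brighter Cdc20 was at -0.78 against -0.97. It lay between -0.59 and -0.69 when single arrays were left out. Wholly lower genes numbered 22 to 26 under all alternatives. With single arrays left out, Spc24 ranged from -0.065 (without hSRY-ON 3) to 0.16, and was -0.02 without hSRY-ON 2, -0.0024 without hSRY-OFF 2 and -0.51 as the mean over its probes, against 0.02 in the report. Cdc25b ranged from -0.19 to 0.077, the latter without hSRY-OFF 3.

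With the replicate number as a block, 0 member probes and 0 of all probes were called by limma, with 36 member probes lower at an unadjusted p under 0.05 and the median still -0.63. Deviations of same-numbered arrays from their group means correlated at 0.0404, 0.0294 and 0.0251. Those of differently numbered arrays correlated at -0.023 to -0.00544, so each array correlated best with its own number. The values are small and rest on 3 arrays per group, and they cannot decide whether the numbers mark pairs. Dim probes are limited by their signal over background, and genes undetected on every array carry no information on mitosis in these brains.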
